A study of Mus musculus with 27 samples.

Results

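The genes described here carry the ATF4 program and the supply of amino acids. They were chosen as a fixed list of 43 genes: 8 stress regulators, 12 enzymes of amino acid synthesis and turnover, 5 enzymes of folate metabolism, 9 amino acid transporters, 1 lipoprotein receptor and 8 cytosolic tRNA synthetases. All 43 were found among the 43346 genes of the expression table by their Ensembl identifiers. The rule that lists them uses no measured value, but the list was drawn up with earlier results of these data known. Of these, 42 passed a filter on low values (at least 10 normalized counts in at least 2 libraries), as did 13762 genes of the table. The gene that did not pass is Slc7a3, a transporter of cationic amino acids, which lay between 0 and 2.70 normalized counts in the 26 libraries.

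RNA was measured in whole lacrimal glands of wild-type BALB/c mice, aged 8 to 10 weeks by the sample labels and somewhat older by the study's methods. The 9 groups were untreated glands (day 0), glands that received an injection of 1 µg of IL-1α, an inflammatory cytokine, and were taken daily up to day 5, at day 7 or at day 14, and glands given saline, the vehicle, and taken at day 14. Each library came from 1 mouse, with 3 mice a group, and 26 libraries held values. The tests omit, following the study's methods, replicate 3 of day 2 and replicate 1 of both day 4 and day 7, and day 7 replicate 2 was not analysed here, which leaves 23 libraries, with 2 at days 2 and 4 and 1 at day 7.

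ATF4 is a basic leucine zipper transcription factor whose protein is made in larger amounts when the initiation factor eIF2α is phosphorylated, as happens under amino acid shortage or stress of the endoplasmic reticulum (ER). It activates genes for the synthesis, uptake and tRNA charging of amino acids, together with regulators that limit growth or prepare the cell for death. Acinar cells of exocrine glands such as the lacrimal gland secrete large amounts of protein and use amino acids at a high rate.

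ATF4 binds, with a C/EBP partner, a composite element whose common core reads TGATGNAA. This core was searched on both strands, where it reads TTNCATCA, in windows from 250 bases before to 50 bases after each annotated start (RefSeq, GRCm38.p6). A window was found for 35 members; Cth, Aldh1l2, Slc7a3, Slc7a5, Slc1a5, Lars, Nars and Wars had none. The core was in 13 of the 35 (37.1%), against 1219 of 27025 genes of the promoter table (4.51%), and per window in 13 of 43 (30.2%) against 1304 of 32851 (3.97%). It was in 7 of the 18 members that fell at day 1 (38.9%), in 1 of 3 that rose (33.3%) and in 5 of 14 that were not called (35.7%). A match describes the letters only. The windows of 5 members that fell at day 1 are shown because they place the core near the start of genes with the largest changes among those that hold it. Each line gives the sense strand of the gene, and the capitals mark the core.
Chac1: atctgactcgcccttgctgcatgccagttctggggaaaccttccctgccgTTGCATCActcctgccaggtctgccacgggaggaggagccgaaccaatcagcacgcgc
Pycr1: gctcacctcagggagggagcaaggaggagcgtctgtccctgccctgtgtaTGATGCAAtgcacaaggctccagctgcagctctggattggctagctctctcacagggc
Slc1a4: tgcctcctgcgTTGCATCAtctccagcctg
Asns: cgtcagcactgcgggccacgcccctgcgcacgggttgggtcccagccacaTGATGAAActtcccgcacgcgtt
Vldlr: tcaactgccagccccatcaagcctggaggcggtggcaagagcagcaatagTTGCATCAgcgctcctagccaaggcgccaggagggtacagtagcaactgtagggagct

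The Chac1 stretch is chr2:119350999-119351106 on the plus strand, with the core starting 193 bases before the start of the gene. The Pycr1 stretch is chr11:120643794-120643901 on the minus strand (103 bases before), and that of Slc1a4 is chr11:20332699-20332728 on the minus strand (4 bases before). The Asns stretch is chr6:7693210-7693282 on the minus strand (23 bases before), and that of Vldlr is chr19:27216770-27216877 on the plus strand (200 bases before).

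Values are the authors' normalized counts (estimated counts divided by 1 factor per library), which are given here for each library. Libraries held 9477000 to 13103000 estimated counts. Changes are log2 fold changes on the log2(value + 1) scale with their standard error (SE) and adjusted p from limma, and a gene was called, or is said to have risen or fallen, where its adjusted p did not exceed 0.05 and its fold reached 2. The comparisons with day 0 all share its 3 libraries. These changes are relative to a normalization that puts the median gene near 0 (0.03 at day 1). The 10 most abundant genes took 70.8 to 75.3% of the total at day 0 and 53.8 to 54.3% at day 1, and scaling each library to its total instead moves the median gene by 1.17, 0.89, 0.68, 0.73 and 0.79 on days 1 to 5 in that order. In bulk tissue, fewer cells of a type and less RNA per cell cannot be told apart.

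At day 0 the members differed widely in level per kb of annotated exon. Nupr1 was highest, at 1497 ± 192 normalized counts per kb (SD, n = 3), followed by Atf4 at 958 ± 68.6, Asns at 617 ± 104, Slc7a5 at 491 ± 99.7, Nars at 430 ± 57.2, Bcat2 at 376 ± 27.2 and Slc3a2 at 371 ± 37.3. In that order the libraries of Nupr1 and Atf4 did not overlap (lowest Nupr1 1321, highest Atf4 1025 per kb), while those of Asns and Slc7a5 did (553 to 737 and 427 to 606 per kb). The lowest members were Slc7a11 at 1.46 ± 1.48, Bcat1 at 0.24 ± 0.05 and Slc7a3 at 0.20 ± 0.35 per kb.

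At 1 day after IL-1α, most of the program was lower. Of the 42 members tested, 22 fell and 3 rose at day 1, where 5.09% of all genes tested fell and 11.3% rose. The median change of the members was -1.12, against 0.03 over all genes, and when libraries were scaled to their totals the direction of this median flips (0.06), 6 members fell, 9 rose and 33 of 42 stayed below the median gene, as in the deposited scaling. At day 2, 9 members fell and none rose (1.14% of genes fell and 11% rose), with a median change of -0.65 that flips to 0.25 under scaling to library totals, where 6 rose and 1 fell. At day 3, 2 fell and none rose (0.574% of genes fell and 2.57% rose), at day 4, 2 rose and none fell (6.97% of genes rose and 0.421% fell), and at day 5, 3 fell and 1 rose (0.589% of genes fell and 9.8% rose). Scaled to library totals, 2 members rose on day 3, 4 on day 4 and 3 on day 5, while 1 fell on day 3 and none on the later days. Under that scaling the median gene itself stood at 1.18, 0.90, 0.69, 0.73 and 0.78 on days 1 to 5. Rises counted under it include this shift of the table. The share of all genes that rose or fell under it is not given here, so these counts are not read as particular to the members. Of the 42 calls of single members on days 1 to 5, that scaling keeps 14, loses 26 and turns the direction of 2. Over days 1 to 5, 23 members fell and 4 rose on 1 day or more, 1 of them in both directions, and 16 were called on none of these days. The lowest group mean over days 0 to 5 was at day 1 for 30 of the 42 members.

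**Figure D1:**
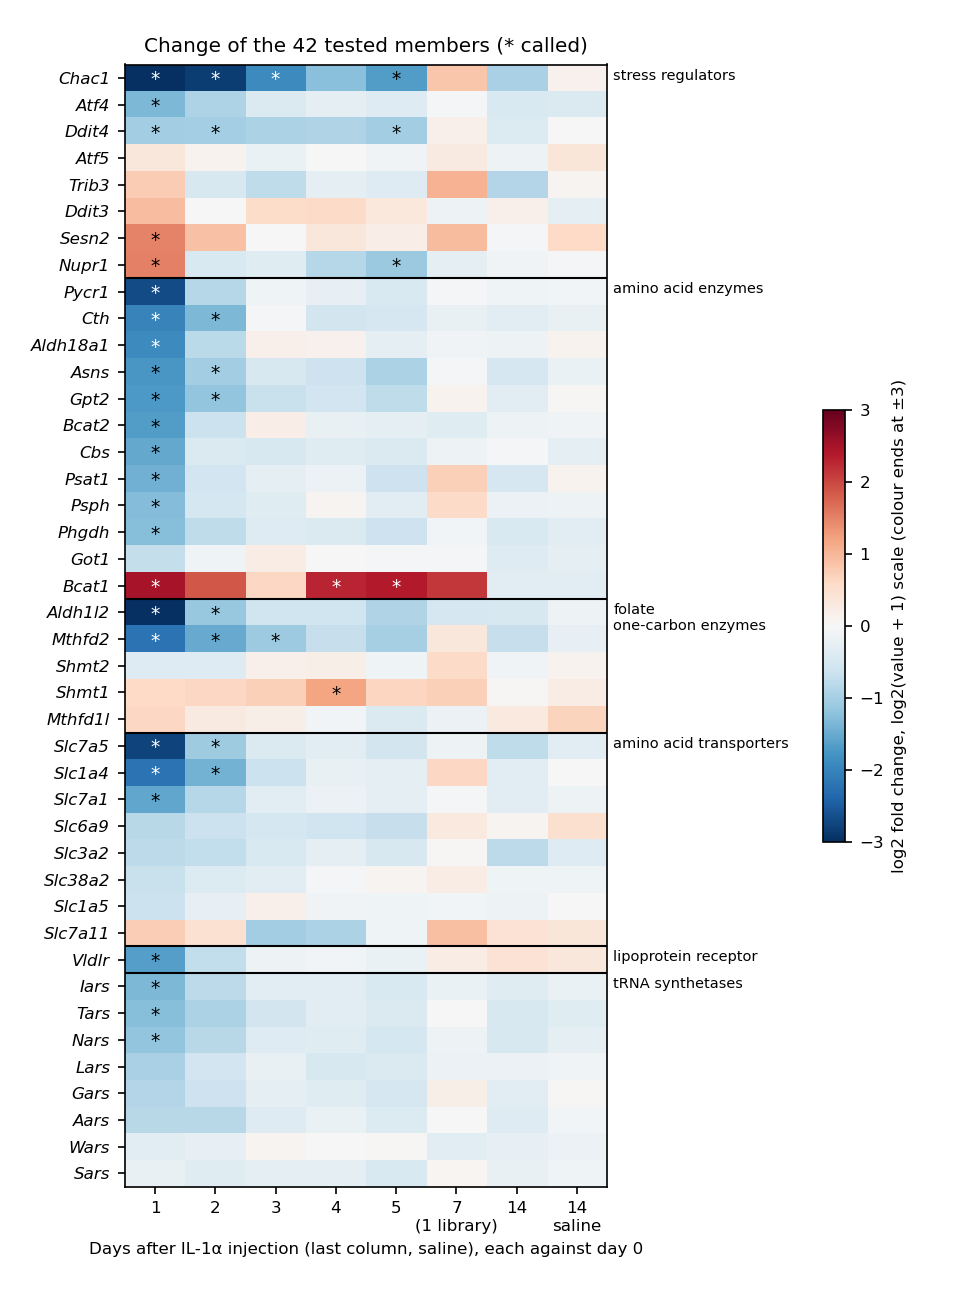
Colour shows the log2 fold change of each of the 42 tested members (rows, ordered within their role by the change at day 1) against day 0 for each day after IL-1α and for saline (columns); a star marks a called change. The blue of day 1 covers 10 of 12 amino acid enzymes with stars and fades by day 3; under scaling to library totals every column shifts toward red, by 1.17 at day 1.

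Among the stress regulators, Atf4 itself fell. It was at 2416, 2268 and 2093 normalized counts at day 0 and at 952, 875 and 852 at day 1, so that no library of day 1 reached the day 0 range. The change was -1.34 (SE 0.09, adjusted p 2.69e-10), a 2.53-fold fall, and relative to library totals it was -0.15. At day 2 the libraries were at 1095 and 1305 (change -0.92, adjusted p 6.18e-07), at day 3 at 1602, 1716 and 1727, and at day 14 at 1589, 1707 and 1637. The saline libraries were at 1711, 1747 and 1522, also below every day 0 library, with a change of -0.44 (adjusted p 0.01), under the fold of 2.

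Chac1, which degrades glutathione in the cytosol, fell the most of the regulators. Its libraries were at 281, 123 and 103 at day 0, at 12.7, 18.2 and 19.9 at day 1, at 17.8 and 23.4 at day 2, at 31.6, 40.0 and 49.97 at day 3, at 73.3 and 54.6 at day 4, and at 58.6, 57.3 and 31.8 at day 5. All libraries of days 1 to 5 that entered the tests lay below those of day 0 (the omitted one of day 4 was at 117), of which replicate 1 stood more than 2-fold above the others. The change was -3.12 at day 1 (SE 0.39, adjusted p 1.6e-06), -2.84 at day 2, -1.91 at day 3 and -1.66 at day 5, each called, and -1.26 at day 4 (adjusted p 0.05), not called. The day 3 call was lost with only these 2 groups in the fit (adjusted p 0.0823) and the day 5 call under scaling to library totals (-0.88). At day 14 the values spread over 83.0, 145 and 38.6, and after saline over 135, 228 and 147.

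Ddit4, an inhibitor of the growth kinase complex mTORC1, was at 414, 242 and 235 at day 0 and at 146, 138 and 130 at day 1. Its change was close to the threshold throughout, at -1.05 at day 1, -1.02 at day 2 and -1.04 at day 5 (adjusted p 0.00116, 0.00593 and 0.00302), and -0.79, -0.75 and -0.77 without day 0 replicate 1. Under scaling to library totals the day 1 change of Ddit4 flips to 0.13.

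A pair of regulators rose at day 1. Sesn2, a leucine-binding protein that restrains mTORC1, was at 42.1, 40.0 and 28.6 at day 0 and at 109, 102 and 102 at day 1, a change of 1.49 (SE 0.20, adjusted p 2.89e-06). Its libraries were still above all of day 0 at day 2, at 72.1 and 64.2 (change 0.88, adjusted p 0.00419), and at 31.6, 46.7 and 31.6 at day 3. The ratio of Sesn2 to Atf4 within a library was 0.0137 to 0.0176 at day 0 and 0.115 to 0.119 at day 1.

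Nupr1, a small chromatin-associated protein induced by stress, was the only member called in both directions. It was at 4279, 3320 and 3694 at day 0, at 17668, 9362 and 7217 at day 1, at 2776 and 2666 at day 2, and at 1713, 1561 and 1952 at day 5. Every day 1 library was above day 0, with replicate 1 of day 1 the highest by far, and every library of days 2 and 5 was below day 0. The change was 1.502 at day 1 (SE 0.21, adjusted p 7.23e-06) and -1.11 at day 5 (SE 0.21, adjusted p 0.000762). The direct comparison of day 5 with day 1 gave -2.61 (SE 0.21). It was made because of these opposite calls and adds no support to them. The day 5 call was lost under scaling to library totals (change -0.31, adjusted p 0.171) and to totals without the 50 most abundant genes of day 0 (-0.96).

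The remaining regulators were not called on any day, but under scaling to library totals Ddit3, Trib3 and Atf5 rose at day 1, by 2.08, 1.86 and 1.53 (adjusted p 4.11e-07, 0.004 and 6.24e-07). Under that scaling the median gene stood at 1.18. Ddit3, which encodes the death-associated factor CHOP, was at 19.3, 34.3 and 25.998 at day 0 and at 63.6, 50.5 and 39.0 at day 1 (change 0.93, adjusted p 0.00175, under the fold of 2). Trib3, a pseudokinase induced by ATF4 and CHOP, was at 19.3, 6.86 and 9.10 at day 0 and at 27.4, 24.9 and 9.57 at day 1, with overlap (change 0.76, SE 0.57). Atf5, a relative of ATF4, had a change of 0.35 (SE 0.17) at day 1.

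**Figure D2:**
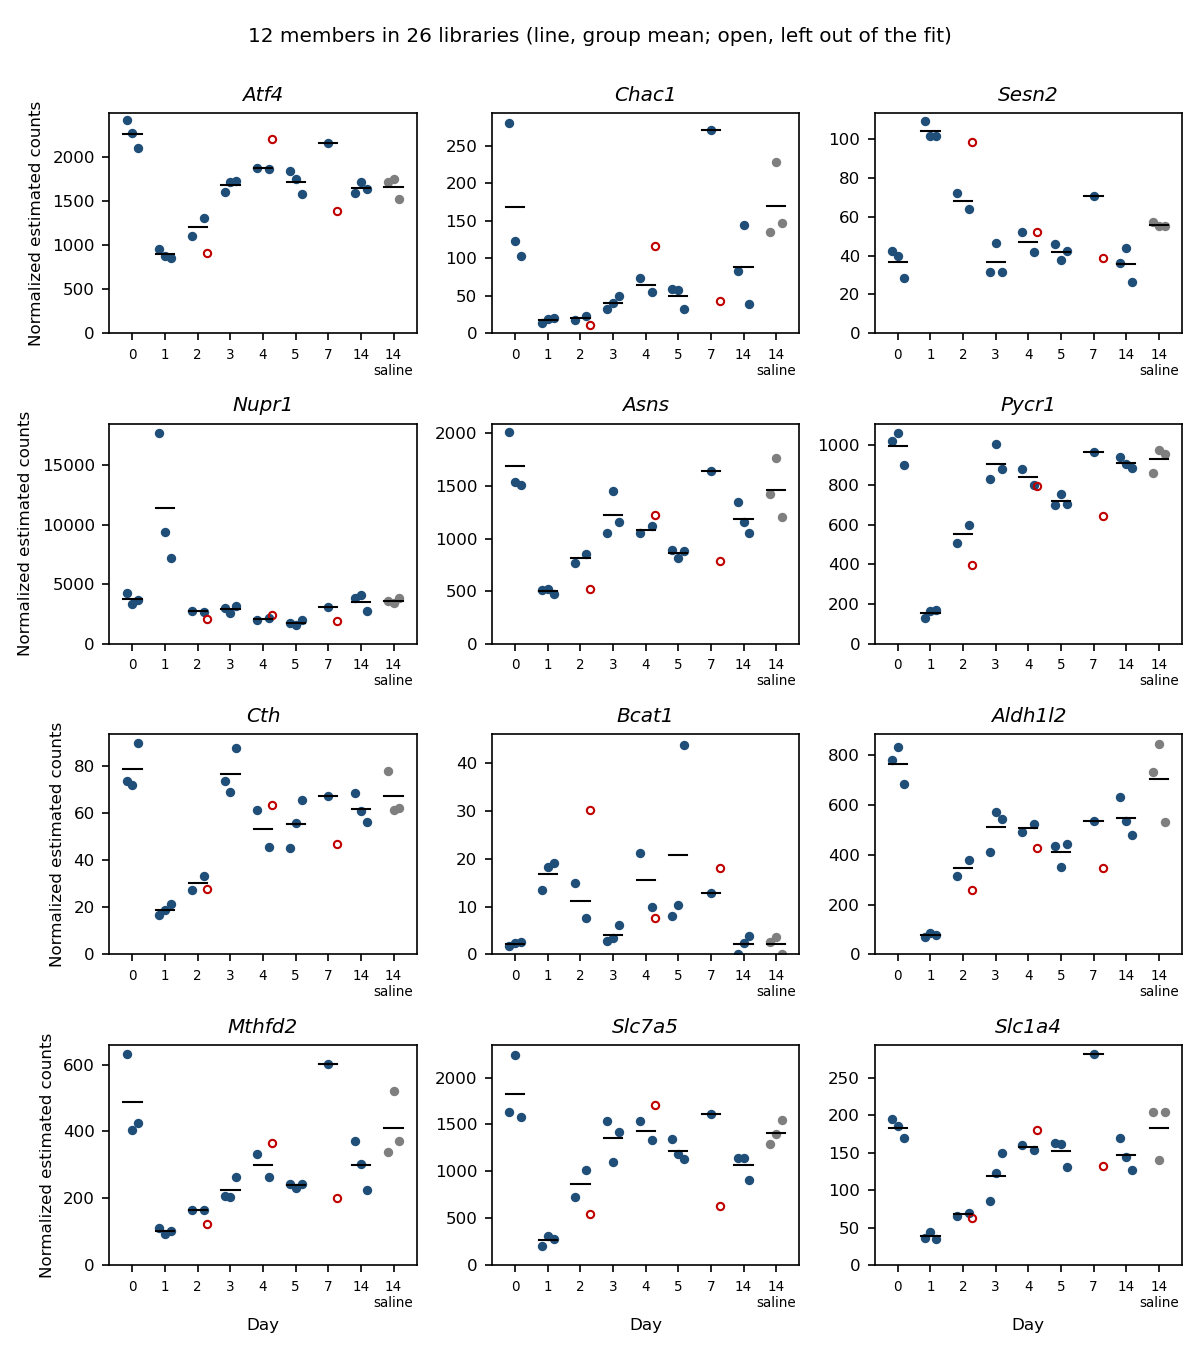
Each panel plots 1 member's normalized counts (vertical axis, linear, from 0) in every library by group (horizontal axis); filled points entered the tests, open red points are the 3 libraries left out, grey points are saline and short lines are group means. Asns, Pycr1, Cth, Aldh1l2, Mthfd2, Slc7a5 and Slc1a4 are lowest at day 1, while Sesn2 and Nupr1 peak there, and the 3 day 1 libraries of Bcat1 lie between 13.4 and 19.1.

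The amino acid enzymes fell in larger numbers than any other role. At day 1, 10 of the 12 fell, 1 rose and 1, Got1, was not called, with a median of -1.60, and scaled to library totals their median was still below 0, at -0.465, with 1 enzyme called down and 1 up. For proline, Aldh18a1, which makes the first intermediate from glutamate, went from 568, 743 and 641 at day 0 to 150, 188 and 182 at day 1 (change -1.90, SE 0.13). Pycr1, which makes proline in the last step, went from 1021, 1063 and 902 to 128, 167 and 168, a 6.45-fold fall (change -2.69, SE 0.11, adjusted p 8.97e-13) that was -1.51 relative to library totals and still called. No day 1 library of either gene reached day 0. Between days 1 and 2 both rose, Pycr1 to 507 and 601 (day 2 against day 1, 1.84, adjusted p 1.19e-08) and Aldh18a1 to 334 and 405 (1.09, adjusted p 0.0001), where 2.02% of genes rose and 0.632% fell.

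Asns, which makes asparagine and is among the best known ATF4 targets, was at 2016, 1538 and 1512 at day 0, at 509, 516 and 472 at day 1 and at 766 and 856 at day 2. The day 1 libraries lay close together and far under day 0 (change -1.74, SE 0.14, adjusted p 3.11e-09), and the change at day 2 was -1.05 (adjusted p 2.9e-05). It was at 887, 819 and 878 at day 5, below every day 0 library (change -0.96, adjusted p 6.35e-05, under the fold of 2). Without day 0 replicate 1, its highest library, the change at day 2 was -0.91.

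The enzymes that make serine from a glycolytic intermediate fell by similar amounts. Phgdh, the first of them, went from 1014, 860 and 855 to 424, 375 and 321 at day 1 (change -1.29, SE 0.11). Psat1, the second, went from 458, 305 and 251 to 124, 139 and 98.7 (change -1.45, SE 0.21), and Psph, the last, from 144, 85.8 and 78.0 to 45.8, 27.6 and 47.9 (change -1.31, SE 0.22). In each of these genes every day 1 library was below every day 0 library, and none was called at day 2, where the changes were -0.75, -0.57 and -0.53 in the same order, each smaller in size than the 0.89 by which scaling to library totals moves the median gene. Relative to library totals all 3 were close to 0 at day 1, between -0.27 and -0.11.

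Cth and Cbs carry sulfur from homocysteine to cysteine. Cth was at 73.7, 72.0 and 89.7 at day 0, at 16.5, 18.9 and 21.4 at day 1 (change -1.996, SE 0.18, adjusted p 1.82e-08) and at 27.1 and 33.4 at day 2 (change -1.35, adjusted p 3.38e-05). It was the member that rose between days 2 and 3, to 73.4, 68.9 and 87.7 (1.31, adjusted p 0.000157), which is within the range of day 0 except for 1 library; 0.814% of genes rose and 5.81% fell in that comparison. Cbs was low at all times, at 29.8, 18.3 and 27.3 at day 0 and at 10.8, 11.5 and 3.68 at day 1 (change -1.54, SE 0.37).

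Of the transaminases, Gpt2, the mitochondrial enzyme for alanine, went from 1195, 1161 and 1117 to 330, 340 and 373 at day 1 (change -1.73, SE 0.14) and to 470 and 543 at day 2 (change -1.19, adjusted p 1.24e-05). The genes for the branched-chain transaminases moved apart. Bcat2, the mitochondrial form, went from 1395, 1588 and 1415 to 369, 517 and 512 at day 1 (change -1.67, SE 0.14, adjusted p 6.11e-09), and was back at 1951, 1426 and 1695 at day 3. Bcat1, the cytosolic form, was near the limit of detection at day 0, at 1.75, 2.29 and 2.60, and stood at 13.4, 18.2 and 19.1 at day 1. All day 1 libraries of Bcat1 were above day 0. Its group counts, rounded from the step of each library and pooled over mice, were about 5 at day 0 and 74 at day 1. They give a ratio of 7.42 with an exact 95% interval of 3.04 to 23.5 that covers counting error only, not the spread between mice. Bcat1 passed the filter on low values only through libraries taken after IL-1α. Its place among the 3 members that rose at day 1 therefore depends in part on that filter.

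Bcat1 was called at days 1, 4 and 5 (adjusted p 0.00471, 0.0364 and 0.011), but with a pseudocount of 0.1 none of these calls held (adjusted p 0.0632, 0.184 and 0.0949). Its values were 21.2 and 9.92 at day 4 and 8.03, 10.3 and 43.8 at day 5, so that replicate 3 stood apart at day 5, and without it the day 5 change was 1.66 (adjusted p 0.0886). The day 4 call was lost when any 1 library of day 0 or day 4 was left out. In monocyte or macrophage markers the day 1 sum was 3890 to 5202 against 1041 to 1754 at day 0, with 8 of 11 markers risen. That sum was highest at day 2, at 7897 to 8501 with 11 of 11 markers risen, where Bcat1 was at 15.0 and 7.51 and not called. At day 5 it was 3150 to 5255. Whether these cells account for Bcat1 was not tested.

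Of the 5 folate enzymes, 2 fell at day 1 and 3 were not called, with a median of -0.39 that flips to 0.78 under scaling to library totals. Aldh1l2, which releases carbon dioxide from formyltetrahydrofolate in mitochondria, had the largest change of the members at day 1: 781, 835 and 682 in untreated glands against 70.7, 84.2 and 76.6 at day 1. This is a 9.8-fold fall (change -3.29, SE 0.16, adjusted p 7.94e-12) that held under scaling to library totals (-2.12). It rose to 315 and 377 at day 2 (day 2 against day 1, 2.15, adjusted p 4.28e-07) and was at 412, 574 and 546 at day 3, still under every day 0 library. Mthfd2, the mitochondrial dehydrogenase and cyclohydrolase, went from 632, 405 and 424 to 109, 92.3 and 102 at day 1 (change -2.23, SE 0.18), to 166 and 165 at day 2 (-1.52) and to 207, 203 and 264 at day 3 (-1.09), each called. Under scaling to library totals both later calls of Mthfd2 were lost (-0.62 at day 2 and -0.40 at day 3), and the day 3 call was also lost without day 0 replicate 1 (-0.89) and with only these 2 groups in the fit (adjusted p 0.065).

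The other folate members were not called at day 1, but under scaling to library totals Mthfd1l and Shmt1 rose, by 1.79 and 1.75 (adjusted p 1.47e-06 and 3.51e-05). Under that scaling the median gene stood at 1.18. Shmt2, the mitochondrial serine hydroxymethyltransferase, was at 130, 146 and 140 at day 0 and at 118, 107 and 92.8 at day 1 (change -0.39, SE 0.23, which flips to 0.78 under scaling to library totals), and Mthfd1l, which releases formate from mitochondria, was at 61.4, 76.6 and 65.0 and then at 97.4, 115 and 102 (change 0.63, adjusted p 0.02). Shmt1, the cytosolic form, was called once, at day 4, with 51.3 and 51.6 against 19.3, 22.9 and 25.0 at day 0 (change 1.17, SE 0.32, adjusted p 0.01), and that call was lost when either of these day 4 libraries was left out (adjusted p 0.0967 and 0.0776). Ratios within a library do not depend on scaling. The ratio of Aldh1l2 to Shmt2 went from 4.86 to 6.01 at day 0 to 0.6 to 0.825 at day 1, and that of Mthfd2 to Mthfd1l from 5.28 to 10.3 to 0.801 to 1.12. In neither pair did the day 1 libraries overlap with day 0.

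**Figure D3:**
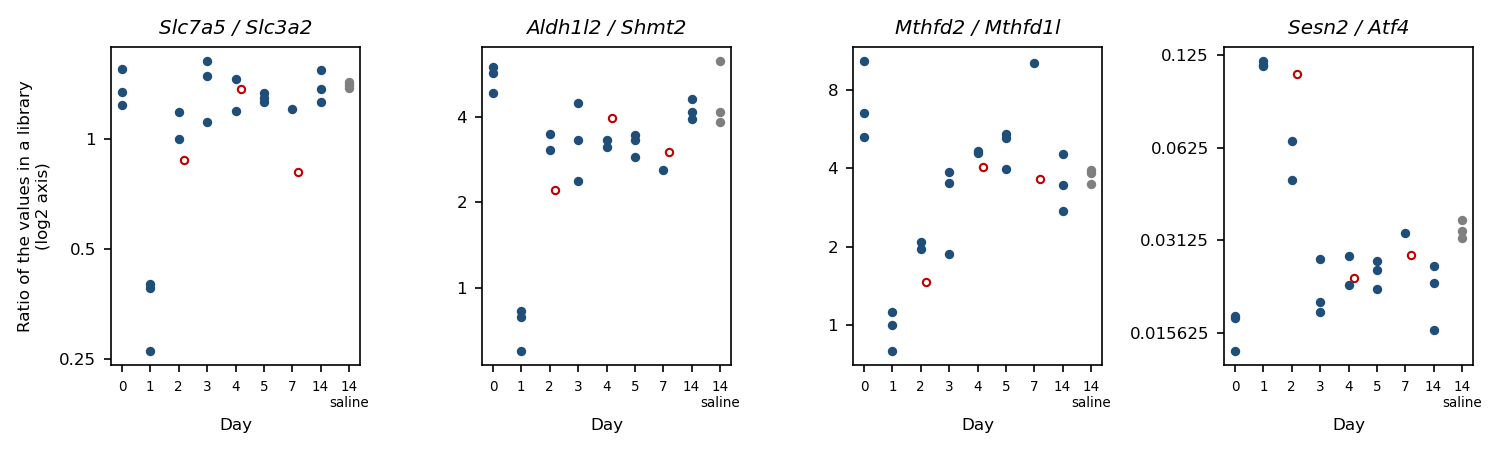
Points are the ratio of 2 members' normalized counts within each library (vertical axis, log2 scale, no unit) by group (horizontal axis, days); open red points are libraries left out of the tests and grey points are saline. The ratio of Slc7a5 to Slc3a2 drops from 1.24 to 1.56 at day 0 to 0.264 to 0.401 at day 1 and is at 1.01 to 1.19 at day 2, and since both values come from the same library it is the same under every scaling.

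Among the 8 transporters tested, 3 fell at day 1 and 5 were not called, with a median of -0.81 that flips to 0.37 under scaling to library totals. Slc7a5, the light chain LAT1 of the exchanger for large neutral amino acids, went from 1632, 2247 and 1583 to 205, 310 and 280 at day 1 (change -2.78, SE 0.17, adjusted p 1.21e-10), and was still called under scaling to library totals (-1.60). Its heavy chain Slc3a2 changed less, from 1314, 1437 and 1174 to 777, 790 and 697 (change -0.79, SE 0.09, adjusted p 7.28e-07), under the fold of 2, and flips to 0.39 under scaling to library totals. The ratio of light to heavy chain was 1.24 to 1.56 in the day 0 libraries and 0.264 to 0.401 in those of day 1. At day 2 Slc7a5 had risen to 727 and 1013 (day 2 against day 1, 1.71, adjusted p 1.46e-05) while Slc3a2 was at 722 and 851 (0.06, SE 0.10).

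Slc1a4, which exchanges serine, alanine and other small neutral amino acids, went from 195, 185 and 169 to 36.3, 44.5 and 35.3 at day 1 (change -2.22, SE 0.18) and to 65.7 and 69.2 at day 2 (-1.42, adjusted p 1.85e-05). Slc7a1, the main carrier of cationic amino acids in many tissues, went from 946, 1046 and 916 to 300, 334 and 353 (change -1.56, SE 0.10). The glutamine carriers Slc1a5 and Slc38a2 and the glycine carrier Slc6a9 had changes of -0.64, -0.68 and -0.83, under the fold of 2, which flip to 0.55, 0.50 and 0.35 under scaling to library totals. Slc7a11, which imports cystine in exchange for glutamate, was at 44.0, 10.3 and 6.54 at day 0 and at 14.7, 36.5 and 28.8 at day 1, with overlap (change 0.73, SE 0.53). Under scaling to library totals Slc7a11 rose, by 1.855 (adjusted p 0.00109), where the median gene stood at 1.18. Vldlr, a lipoprotein receptor induced by ATF4, went from 111, 118 and 96.2 to 34.4, 26.3 and 41.2 at day 1 (change -1.66, SE 0.20), and was at 163, 147 and 128 at day 14.

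The tRNA synthetases, which load amino acids onto their tRNAs, were lower as well. All 8 were below 0 at day 1, and 3 fell, with a median of -0.93 that flips to 0.26 when libraries are scaled to their totals, where all 8 stayed below the median gene. Iars, for isoleucine, was at 874, 895 and 883 at day 0 and at 330, 369 and 348 at day 1 (change -1.34, SE 0.10, adjusted p 2.41e-09). Tars, for threonine, went from 1009, 760 and 777 to 375, 334 and 331 (change -1.28), and Nars, for asparagine, from 2130, 1859 and 1633 to 883, 808 and 775 (change -1.18, which flips to 0.0021 under scaling to library totals). Lars, Gars and Aars had changes of -0.98, -0.87 and -0.84, under the fold of 2, and Wars and Sars the smallest of the 8, at -0.35 (SE 0.13) and -0.23 (SE 0.09), and all 5 flip above 0 under scaling to library totals.

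Related genes outside the list were counted beside the members, from lists of the pathways around them. Of the other cytosolic tRNA synthetases, 5 of 12 fell at day 1 (the most Eprs at -1.28, Mars at -1.25 and Yars at -1.21), with a median of -0.77 that flips to 0.41 under scaling to library totals. Of the mitochondrial synthetases 0 of 17 were called in limma (median -0.24, which flips to 0.91 under that scaling). At an unadjusted p under 0.05 were 9 of the 17 and 6812 of 13762 genes. Of 17 further partners and targets of ATF4, 5 rose and 2 fell. Those that rose most were Gdf15, a stress cytokine (change 2.67), Cebpd, of the C/EBP family (2.63), and Tnfrsf10b, a death receptor (2.30). The 2 that fell were Stc2, a secreted glycoprotein (-2.40), and Xpot, the nuclear exporter of tRNAs (-1.11).

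A list of 14 genes around eIF2α held its kinases and phosphatase subunits, Gcn1l1, Impact, Eif2s1 (eIF2α itself) and Eif2b1 to Eif2b5. Of these, 1 was called in limma, Eif2ak2, the kinase activated by double-stranded RNA (change 1.11, adjusted p 8.31e-05), where 11.3% of all genes rose. All 12 interferon response genes rose (median 3.81), the most Cxcl10, a chemokine (5.19), followed by Rsad2 (4.71) and Oas3 (4.59). Of 18 genes for protein folding in the ER that XBP1 or ATF6 control, 10 fell, the most Derl3 (-2.44), Sdf2l1 (-1.51) and Dnajc3 (-1.37). Their median was -1.08, which flips to 0.10 under scaling to library totals. At day 2, 0 were called in limma, with 9 of the 18 and 5656 of 13762 genes at an unadjusted p under 0.05.

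**Figure D4:**
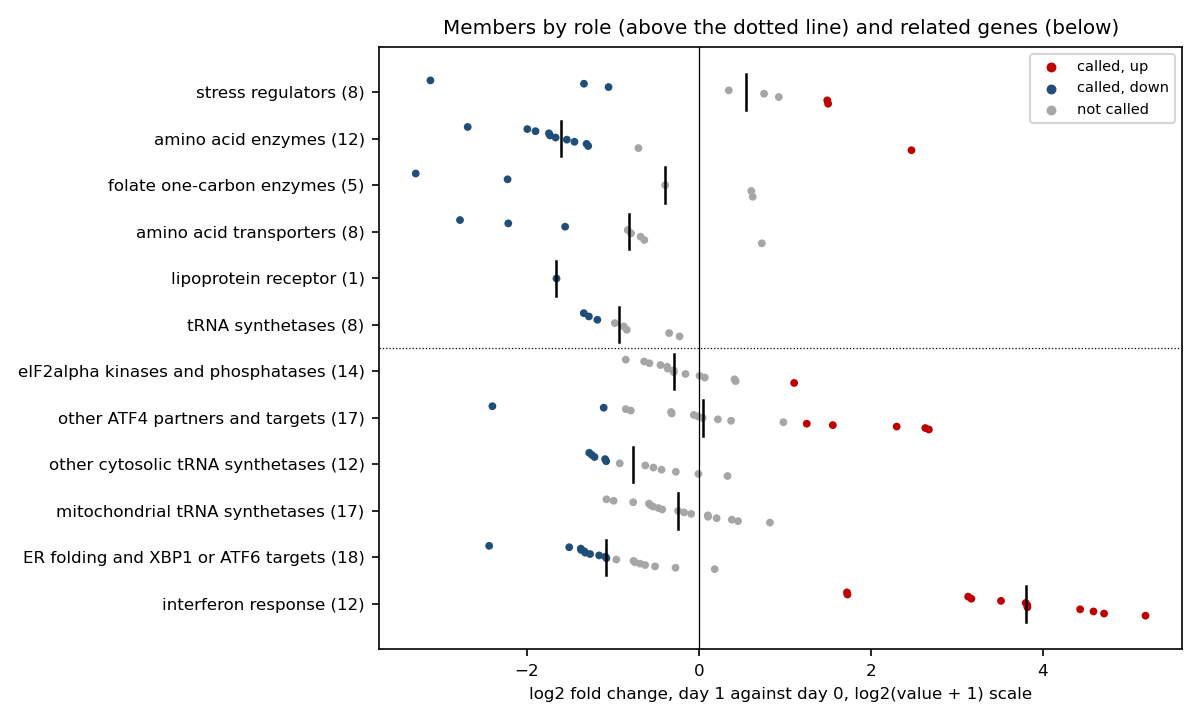
Each point is a gene's log2 fold change at day 1 against day 0 (horizontal axis), in rows by list with the number tested in brackets, coloured by its call, and black bars are medians. The row of eIF2α kinases and phosphatases also holds Gcn1l1, Impact, Eif2s1 and Eif2b1 to Eif2b5. The amino acid enzymes have a median of -1.60 and the ER folding genes one of -1.08, while the interferon response genes have a median of 3.81; under scaling to library totals the median gene moves right by 1.17, which takes every median that is below 0 here to above 0 except those of the amino acid enzymes (-0.465) and of the lipoprotein receptor Vldlr (-0.50).

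Cell type markers moved at the same time, and their sums and calls are given in the deposited scaling only. In that scaling the total of every day 1 library lay below the total of every day 0 library. Relative to library totals, falls of the sums below are therefore smaller, and rises larger, than these values show. The sum of 10 lacrimal secretory markers, which are present as the tissue label requires, was 2190000 to 3075000 at day 0 and 855000 to 939000 at day 1, and 8 of the 10 fell, among them Bhlha15, a transcription factor of secretory cells (change -1.65). The sum of 6 epithelial markers went the other way, from 5477 to 6490 at day 0 to 8037 to 11545 at day 1, with 1 of 6 called (Cdh1, 1.07). Neutrophil markers went from a sum of 12.6 to 14.3, with Mmp8, Retnlg and Ly6g at 0 in all day 0 libraries, to 1964 to 2505, and 7 of the 7 tested rose. Plasma cell markers, which belong to another secretory cell, went from 1882 to 7303 to 440 to 1342, with 2 of 5 fallen, of which Derl3 is also in the ER folding list. Parotid-type salivary markers ranged from 3567 to 200832 within day 0, and 0 of 6 were called at day 1 in limma, with 0 at an unadjusted p under 0.05. The part of these cell types in the changes of the members was not tested.

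The amino acid enzymes were used to look for genes of like pattern. The mean of their standardised values over the 23 libraries had a Pearson correlation of 0.965 with Oit1, 0.961 with Gjb1, a gap junction protein, 0.955 with Ssr4, a subunit of the ER translocon-associated complex, 0.951 with Mcfd2, which acts in the export of proteins from the ER, 0.95 with Fam114a1 and 0.944 with Slc2a13. Among the members outside the enzymes it was 0.961 with Aldh1l2, 0.944 with Slc7a1, 0.938 with Slc7a5 and 0.934 with Atf4, and it was negative for Sesn2 (-0.694), Nupr1 (-0.657) and Ddit3 (-0.577). The libraries share groups, so these values describe the time course and carry no test.

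The members moved back toward day 0 between days 1 and 3 and not further by day 5. Each of the 10 enzymes that fell at day 1 had a mean at day 2 above that of day 1, and between days 1 and 2, 5 members rose (Aldh1l2, Pycr1, Slc7a5, Aldh18a1 and Bcat2) and Nupr1 fell (-1.96, adjusted p 4.31e-05). Every library lay below every day 0 library in 32 of 42 members at day 1 (24.4% of all genes did so), in 31 at day 2 (25.2%), in 20 at day 3 (10.3%), in 24 at day 4 (21.9%) and in 27 at day 5 (21%). Days 2 and 4 had 2 libraries in the tests, so this rule was easier to meet there than on days with 3. The median change was -0.34 at day 3, -0.27 at day 4 and -0.43 at day 5. At day 5, 23 members passed the adjusted p alone, 22 of them lower, against 4 with the fold as well. Many other genes moved too: 26 of 42 members and 5552 of 13762 genes had an unadjusted p under 0.05 in limma. The change was below 0 in 36 members and in 6797 genes. Under scaling to library totals these medians flip to 0.35, 0.47 and 0.35 in that order, at day 5 with 36 of 42 below the median gene.

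At day 7, with 1 library in the tests and its spread taken from the other groups, no member was called in limma and 5 had an unadjusted p under 0.05 (0.189% of genes were called). That library held Slc1a4 at 281, Psat1 at 534 and Chac1 at 271, with Slc1a4 and Psat1 above every day 0 library and Chac1 below 1 of them, while the library left out of the tests at day 7 held them at 132, 244 and 43.1. At day 14 no member was called in limma against day 0 (1.66% of genes called). At an unadjusted p under 0.05 were 18 of 42 members and 3453 of 13762 genes. In 16 members every day 14 library lay below every day 0 library, where 12.9% of genes did so. Slc3a2 was among these, at 831, 735 and 714 (change -0.78, SE 0.09, adjusted p 9.51e-05), as was Slc7a5, at 1145, 1143 and 902 (change -0.77, adjusted p 0.01). In both genes the saline libraries of day 14 also lay below every day 0 library. They were at 937, 972 and 1098 for Slc3a2 and at 1294, 1398 and 1546 for Slc7a5.

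After saline no member was called in limma either (0.959% of genes called), and the median change was -0.10. At an unadjusted p under 0.05 in limma were 10 of 42 members and 2932 of 13762 genes. Between day 14 after IL-1α and day 14 after saline, 0 of 42 members and 0% of all genes were called in limma, with 12 members and 682 of 13762 genes at an unadjusted p under 0.05. There the change of Atf4 was -0.01 (SE 0.09), of Asns -0.30 (SE 0.14), of Slc3a2 -0.40 (SE 0.09, adjusted p 0.81) and of Chac1 -1.08 (SE 0.39, adjusted p 0.99). Taken against saline instead of day 0, the counts of called members on days 1 to 5 were 22, 10, 2, 3 and 6. Saline was sampled only at day 14, so the times are not matched. The share of all genes called in these comparisons is not given here.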

How the data were processed

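RNA of lacrimal glands was measured in libraries made with a stranded mRNA kit. The authors aligned reads with STAR, estimated counts per gene with RSEM (mm10) and normalized with DESeq2; versions are not given in the sources used here. The deposited values, of unit signal, are estimated counts divided by 1 factor per library: over 13325 genes, each library had a median ratio of 1.01 to the genes' geometric means. Of low values, 75.3 to 81.3% were whole multiples of 1 step in their library, to within 0.01, so whole reads were not recovered and no count test was run; that step gave the depth. Depth was 9477000 to 13103000 estimated counts (median 11018000). The interval for Bcat1 uses counts rounded from that step and pooled over mice, and covers counting error only.

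Gene names came from GENCODE vM21 for 42462 of 43346 identifiers. limma 3.58.1 (R 4.3.3) was fitted to log2(value + 1) of 23 libraries in 9 groups, with a variance trend (14 residual and 6.38 prior degrees of freedom) and Benjamini-Hochberg adjustment over 13762 genes. On simulated data for day 1 against day 0 over 13762 genes, 43% of 100 genes changed 2-fold, which is the threshold itself, and 100% of 100 genes changed 4-fold were called, with 2 unchanged genes. Exon lengths are unions of annotated exons. Every member is named or counted; of each pathway list the called genes with the largest changes are named, up to 3 in each direction, with the 6 genes of like pattern and up to 5 promoters. The members and lists were chosen with earlier results of these data known. Alternatives were other libraries, pseudocounts, filters, scalings, controls and thresholds, a replicate block, and leaving out each library.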

Additional observations from a re-analysis of the deposited data

Results flagged for a closer look

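Nupr1 rose at day 1 and fell at day 5 against the same day 0 libraries, and days 5 and 1 differed by -2.61 on the log2 scale (SE 0.21), with all 3 libraries of day 5 below all 3 of day 1. That comparison was made because of the opposite calls and adds no support to them. Under scaling to library totals the fall of Nupr1 at day 5 was no longer called (-0.31, adjusted p 0.171). The 3 libraries left out of the tests held members more than 2-fold above every day 0 library: 2 in day 2 replicate 3 (Sesn2 at 98.8 and Bcat1 at 30.1), 1 in day 4 replicate 1 (Bcat1 at 7.62) and 1 in day 7 replicate 1 (Bcat1 at 17.97). Of all genes tested, 13.1%, 3.08% and 12.8% stood as far above in these libraries. More than 2-fold below every day 0 library were 15 members in day 2 replicate 3, 1 in day 4 replicate 1 (Cbs at 5.08) and 3 in day 7 replicate 1 (Chac1 at 43.1, Mthfd2 at 200.3 and Slc7a5 at 633), against 2.66%, 1.53% and 1.1% of all genes. The cause was not tested.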

How the results depend on the processing

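With libraries scaled to their totals, 15 members were called at day 1 (9 up, 6 down), 7 at day 2 (6 up, 1 down), 3 at day 3 (2 up, 1 down), 4 at day 4 (all up), 3 at day 5 (all up) and 3 between days 2 and 3, and of the 42 called changes of single members on days 1 to 5, 14 kept their call, 26 lost it and 2 turned direction (Ddit4 to 0.13 and Nars to 0.0021 at day 1). Scaling to totals moves the median gene up by 1.17, 0.89, 0.68, 0.73 and 0.79 on days 1 to 5. Rises under it are to be read beside that shift. Without the 50 most abundant genes in the totals, 2 were called at day 5 and 2 between days 2 and 3. With all 26 libraries, 14 were called at day 2, 0 at day 4, 1 at day 7 and 4 between days 2 and 3. At day 4, 1 was called with a pseudocount of 0.1 and 1 with no filter, and with only the 2 groups compared 0 were called at days 3 and 4. With the adjusted p alone the counts were 27, 14, 12 and 23 at days 2 to 5, 11 at day 14, 3 after saline, 19 between days 1 and 2 and 17 between days 2 and 3. The shares of all genes called under the settings of this section are not given here, so the counts are not read as particular to the members. At a different and looser rule, an unadjusted p under 0.05 in limma, 5656, 3455, 4398 and 5552 of 13762 genes passed on days 2 to 5. Of the 42 members, 31, 22, 22 and 26 did so.

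Leaving out 1 library gave 25 to 27 calls at day 1, 7 to 11 at day 2, 1 to 3 at day 3, 0 to 3 at day 4 (0 without day 4 replicate 2 or replicate 3, 1 without day 0 replicate 1), 3 to 6 at day 5, 0 at days 7 and 14 and after saline, 4 to 8 between days 1 and 2, and 1 to 3 between days 2 and 3. At day 3, 1 was called without day 0 replicate 1. With a replicate block the counts were 25, 9, 2, 2 and 4 at days 1 to 5, 6 between days 1 and 2 and 1 between days 2 and 3, and Bcat1 lost its call at day 4 (adjusted p 0.0624). Libraries of the same number deviated together no more than those of other numbers. Their median correlation was 0.00092 (-0.253 to 0.248 over 45 pairs, 6 over 0.1). For pairs of other numbers it was 0.0031 (-0.282 to 0.283 over 90 pairs, 17 over 0.1). No pairing by number was seen, which does not exclude one. Causes were not tested. Day 7 rests on 1 library, and members under about 10 normalized counts, such as Bcat1, are limited by depth.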

Other observations

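Among the 10 libraries of day 0, day 14, saline and day 7 that entered the tests, the same 3 libraries, day 0 replicate 1, day 7 replicate 3 and saline replicate 2, held the 3 highest values of 8 of the 42 members (19%): Trib3, Chac1, Ddit4, Asns, Psat1, Mthfd2, Gars and Sars. This was so for 185 of all 13762 genes (1.34%). Chac1 was at 281, 271 and 228 in these libraries and at 147 in the next, and Mthfd2 was at 632, 600.3 and 520 with 424 next. The pattern was noticed after the values were seen, the libraries belong to different groups, and no test was made.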
